A study of Mus musculus with 2 samples.

Results

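The miR-26 and miR-101 genes are 5 of the 1973 microRNA genes counted in mouse limb, and they were taken by name: Mir26a-1, Mir26a-2 and Mir26b form the miR-26 family, and Mir101a and Mir101b the miR-101 family. All 5 had a row in the count tables. The limbs came from healthy B6NCrl mouse embryos at 12.5 days of development, males and females pooled, and RNA shorter than 30 nucleotides was sequenced in 2 biological replicates. Replicate 1 was a pool of 88 embryos and replicate 2 a pool of 68, and both belong to a single group with no treatment or genotype to compare. Each pool mixes all cell types of the limb, so fewer cells of a type and less RNA per cell cannot be told apart.

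A microRNA is cut from an RNA hairpin as a short strand that guides Argonaute proteins to messenger RNAs, mostly by pairing of its bases 2 to 8, the seed, with sites in the 3′ UTR. Both families are known to repress Ezh2, the histone methyltransferase subunit of a Polycomb complex that silences developmental genes. Ezh2 is needed for normal patterning of the mouse limb. Repression of Ezh2 by miR-26a has been described in differentiating mouse muscle cells, and repression by miR-101 in human tumour cells. The miR-26 genes lie in the Ctdsp genes, which encode small phosphatases that act with the REST repressor to keep neuronal genes silent in other cells.

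The mature sequences are shown because they decide which genes can be told apart by counting reads. They were taken from RefSeq (GRCm38.p6), where all 5 genes had both arms, 10 arms with 9 different sequences. Capitals mark the seed, and each line gives the arm that carries the family's known seed.
mmu-miR-26a-5p: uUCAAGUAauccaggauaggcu
mmu-miR-26b-5p: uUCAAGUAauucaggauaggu
mmu-miR-101a-3p: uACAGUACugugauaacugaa
mmu-miR-101b-3p: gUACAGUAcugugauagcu
Mir26a-1 and Mir26a-2 carry the same 22-base miR-26a-5p, and miR-26b-5p shares its seed UCAAGUA. No other mature microRNA in the table has that seed. Counted from the 5′ end of miR-26a-5p, miR-26b-5p differs by C11U and C21U and is 1 base shorter, at 21 bases. The annotated miR-101b-3p starts 1 base before miR-101a-3p, so its seed is UACAGUA where that of miR-101a-3p is ACAGUAC. Over the 18 bases they have in common the only difference is A16G, counted from the 5′ end of miR-101a-3p.

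The other arms are shown because they separate the miR-26a copies.
mmu-miR-26a-1-3p: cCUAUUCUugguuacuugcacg
mmu-miR-26a-2-3p: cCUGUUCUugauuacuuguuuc
mmu-miR-26b-3p: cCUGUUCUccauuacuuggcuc
Of their 22 bases, 6 differ between miR-26a-1-3p and miR-26a-2-3p. Each of the 3 was found in 1 annotated hairpin only, with up to 1 mismatch allowed.

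Mir26b had by far the most counts of the 5 genes, followed by Mir101b, Mir101a, Mir26a-2 and Mir26a-1. This order was the same in both libraries, and within each library the 95% exact (Clopper-Pearson) intervals of neighbours in the order did not overlap. Levels are given as CPM, the counts on the gene's own strand per 1000000 counts on all microRNA genes, and detection required at least 10 CPM in each library. By that rule 4 of the 5 genes were detected, all but Mir26a-1, against 14.5% of all 1973 genes, of which 1256 had no count in either library. The counting intervals and limits leave out every error but that of counting, as PCR copies of 1 molecule are counted as separate reads.

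Mir26b (ENSMUSG00000065468.1, chr1:74394310-74394394, plus strand, mm10) had 109678 counts in replicate 1 and 81676 in replicate 2. That was 24235 CPM (95% interval 24093 to 24377) in replicate 1 and 22661 CPM (22507 to 22815) in replicate 2, or 23448 ± 1113 CPM (SD, n = 2). Mir26b ranked 11th among all genes in each library. Next above it in mean level stood Mir140, the cartilage microRNA, at 23899 ± 1020 CPM, and next below it Mirlet7g, of the let-7 family that rises as cells differentiate, at 21638 ± 861 CPM. Both libraries gave that order, although Mir26b and Mir140 differed by less than the SD of either gene.

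The miR-26a copies stood far lower, Mir26a-2 among the lower detected genes and Mir26a-1 at the edge of detection. Mir26a-2 (ENSMUSG00000065430.1, chr10:126995530-126995613, plus strand) had 174 counts in replicate 1 and 135 in replicate 2, or 38.4 CPM (32.9 to 44.6) and 37.5 CPM (31.4 to 44.3), with a mean of 38.0 ± 0.70 CPM. Mir26a-1 (ENSMUSG00000065513.1, chr9:119031796-119031885, plus strand) had 57 and 34 counts, or 12.6 CPM (9.54 to 16.3) in replicate 1 and 9.43 CPM (6.53 to 13.2) in replicate 2. Only replicate 1 put Mir26a-1 at the detection level, and its mean was 11.0 ± 2.24 CPM. Relative to Mir26a-2, Mir26b was 630 times as high in replicate 1 and 605 times as high in replicate 2, and relative to Mir26a-1 it was 1924 and 2402 times as high. The ratio of Mir26a-2 to Mir26a-1 was 3.05 in replicate 1 and 3.97 in replicate 2. These levels and ratios cover only reads that could be placed at 1 locus. How far they hold for miR-26a-5p as a whole was not tested, since both copies carry it in full.

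Within the miR-101 family most counts assigned to a gene were those of Mir101b. Mir101b (ENSMUSG00000065556.1, chr19:29135279-29135375, plus strand) had 8815 counts in replicate 1 and 6501 in replicate 2, which was 1948 CPM (1907 to 1989) and 1804 CPM (1760 to 1848), with a mean of 1876 ± 102 CPM. It ranked 74th in each library. Mir101a (ENSMUSG00000065451.1, chr4:101346945-101347027, minus strand) had 631 and 535 counts, or 139 CPM (129 to 151) in replicate 1 and 148 CPM (136 to 162) in replicate 2, with a mean of 144 ± 6.37 CPM. The ratio of Mir101b to Mir101a was 14.0 in replicate 1 and 12.2 in replicate 2. This ratio too covers only reads that could be placed at 1 locus.

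**Figure D1:**
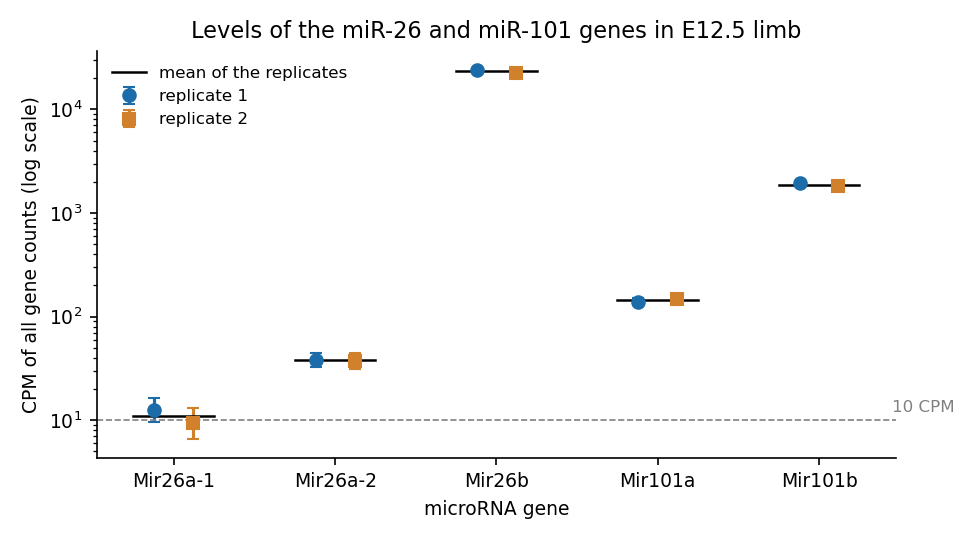
CPM of the 5 genes in each replicate on a log axis, with 95% exact counting intervals as error bars and a black line at the mean of the 2 replicates. The genes run from about 11.0 CPM for Mir26a-1, beside the dashed detection level of 10 CPM, to 23448 CPM for Mir26b, and the replicates of a gene lie close beside each other.

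As families, the 3 miR-26 genes held 2.43% of all gene counts in replicate 1 and 2.27% in replicate 2, a mean of 2.35% ± 0.11. The 2 miR-101 genes held 0.209% and 0.195%, a mean of 0.202% ± 0.0096. The miR-26 genes together exceeded the miR-101 genes by 11.6 times in both libraries. Mir26b made up 99.8% of the miR-26 counts in both replicates (99.8% to 99.8% in each), and Mir101b made up 93.3% (92.8 to 93.8) of the miR-101 counts in replicate 1 and 92.4% (91.8 to 93.0) in replicate 2. So each family's counts came mostly from 1 gene, as far as reads could be assigned to a gene.

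**Figure D2:**
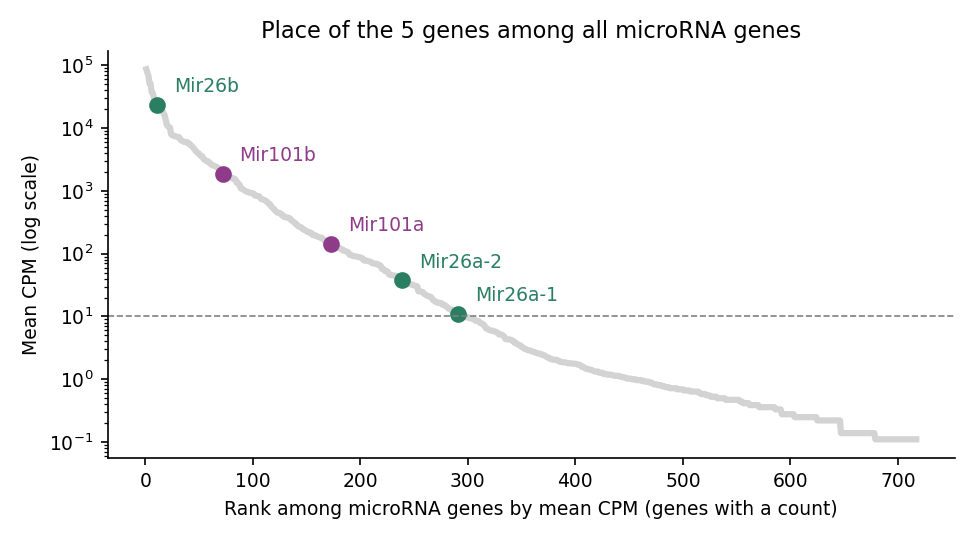
Mean CPM of every microRNA gene with a count, ordered by rank (grey line, log axis), with the 5 genes as coloured points. Mir26b stands at rank 11, Mir101b at 72, Mir101a at 173, Mir26a-2 at 239 and Mir26a-1 at 291, shortly before the line crosses the dashed level of 10 CPM.

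The genes nearest in level to the other detected members were Mir199b (1917 ± 192 CPM) above and Mir98 (1876 ± 80.9 CPM) below Mir101b, Mir672 (150 ± 14.7 CPM) above and Mir185 (140 ± 28.0 CPM) below Mir101a, and Mir582 (41.1 ± 1.59 CPM) above and Mir450-1 (37.2 ± 1.96 CPM) below Mir26a-2. Mir199b is a mesenchymal microRNA and Mir98 belongs to the let-7 family. The libraries gave opposite orders for Mir101b against both of its neighbours, for Mir101a against Mir185 and for Mir26a-2 against Mir450-1, so these positions were not resolved. With 2 samples of 1 group, likeness of level is the only pattern that could be compared.

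The 2 miR-26a copies differ from Mir26b in how much of their sequence is found elsewhere. In the deposited tables, reads that map to several places are held in a row of their own and not given to a gene. The longest stretches that the hairpins of a family share are shown because a read lying wholly inside one cannot be assigned to a gene. Capitals mark the bases inside the annotated mature arm of the gene named first.
Mir26a-1 and Mir26a-2: UUCAAGUAAUCCAGGAUAGGCUgug
Mir26a-1 and Mir26b: gUUCAAGUAAU
Mir101a and Mir101b: aaaggUACAGUACUGUGAUA
Mir101a and Mir101c: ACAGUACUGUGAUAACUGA
The stretch shared by Mir26a-1 and Mir26a-2 was 25 bases long, holds the whole of miR-26a-5p and runs 3 bases beyond it (chr9:119031811-119031835 and chr10:126995543-126995567). The stretch shared by Mir26a-1 and Mir26b was 11 bases. No window of 18, 20 or 22 bases of the Mir26b hairpin occurred in any other annotated hairpin on either strand. In Mir26a-1, by contrast, 4 of 69 windows of 22 bases occurred in Mir26a-2, and in Mir26a-2 4 of 63 windows occurred in Mir26a-1.

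Mir101a and Mir101b shared 20 bases, from 5 bases before miR-101a-3p to its base 15 (chr4:101346963-101346982 and chr19:29135334-29135353). No window of 22 bases was shared by either. Of windows of 18 bases, 5 of 66 in Mir101a occurred in Mir101b or Mir101c, and 3 of 80 in Mir101b occurred in Mir101a. How far this moves the ratio of Mir101b to Mir101a was not tested. Mir101c, a further annotated copy on chromosome 9 (3038669 to 3038743, minus strand), had no row in the tables, and 19 of the 21 bases of miR-101a-3p occur in it unbroken. Mir144, a microRNA of red blood cell precursors, begins its 3p arm with the same 7 bases UACAGUA as miR-101a-3p. It stood at 27.2 CPM in replicate 1 and 16.6 CPM in replicate 2, a mean of 21.9 ± 7.45 CPM, below Mir101a and Mir101b in both libraries.

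**Figure D3:**
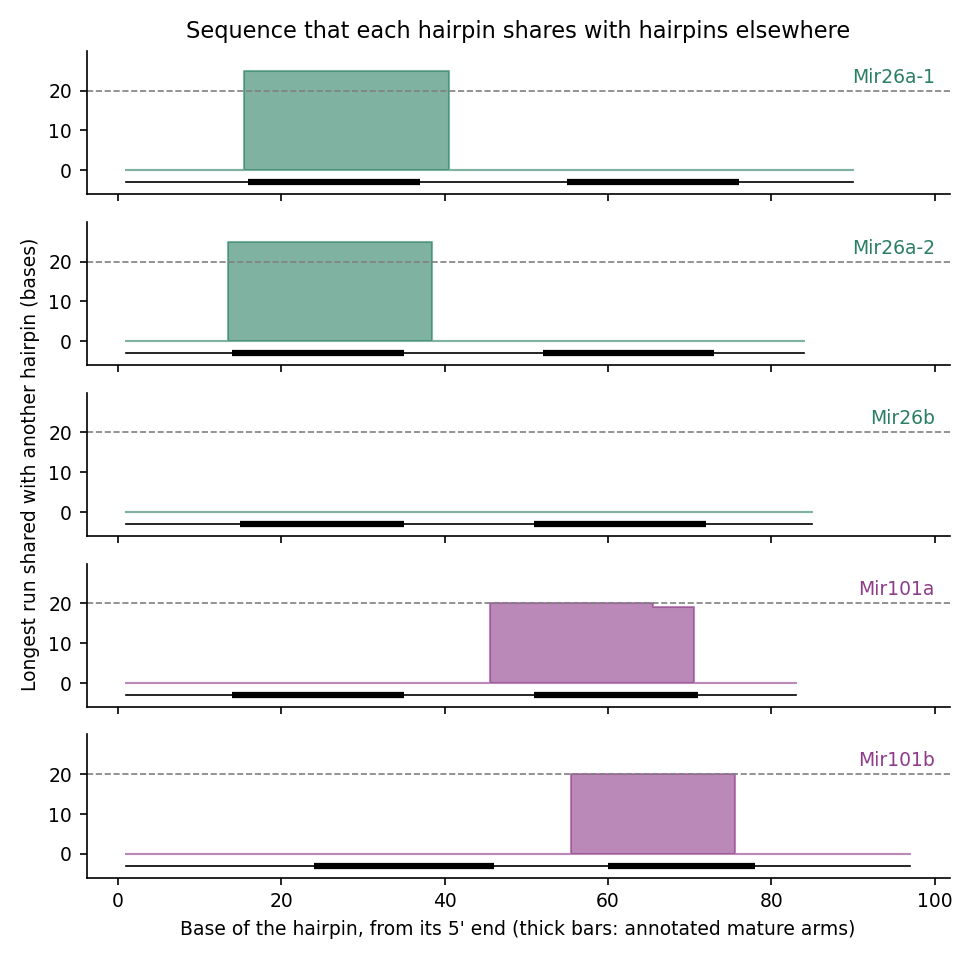
For each base of the 5 hairpins, the length of the longest run containing it that also occurs in an annotated hairpin elsewhere (runs under 15 bases are drawn as 0). Black bars show the mature arms and the dashed line marks 20 bases. The 5p arms of Mir26a-1 and Mir26a-2 lie wholly in a run of 25 bases, the 3p arms of Mir101a and Mir101b lie in or across a run of 20 bases, and Mir26b has none.

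Reads mapped to several places numbered 2892656 in replicate 1 and 2310423 in replicate 2, which is 26.4 and 28.3 times the counts of Mir26b. How many of them were miR-26a-5p was not tested, because these rows name no sequence. The levels of Mir26a-1 and Mir26a-2 are therefore uncertain and cover reads that could be placed at 1 locus, and the lead of Mir26b over them holds for such reads only. The same limit applies in a smaller stretch of sequence to Mir101a and Mir101b. Since each count covers a whole hairpin, 5p and 3p arms were not separated.

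The 3 miR-26 genes occupy matching places in 3 related host genes, in GENCODE M21 on the same assembly. Mir26b lies in intron 4 of 6 of Ctdsp1 (transcript Ctdsp1-201), an intron of 564 bases. Mir26a-2 lies in intron 5 of 7 of Ctdsp2 (Ctdsp2-202, 1946 bases) and Mir26a-1 in intron 5 of 7 of Ctdspl (Ctdspl-201, 3283 bases), each on the strand of its host. The hairpin is thus 2 introns before the last in each host. For Ctdsp2 there are also 2 annotated transcripts, 1 of them a retained intron, with an exon that overlaps part of the Mir26a-2 hairpin. Neither transcript spans the whole hairpin. Mir26b, which had the most reads placed at 1 locus, lies in the shortest of the 3 hosts. Ctdsp1 spans chr1:74391509-74397285 and Mir26b starts 2801 bases from its start. Mir26a-2 starts 16813 bases into Ctdsp2 and Mir26a-1 105343 bases into Ctdspl. Whether level goes with the length of the host was not tested. Small RNA libraries do not measure the host messenger RNAs, so levels of hosts and hairpins were not compared.

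The miR-101 genes have unrelated hosts. Mir101b lies in intron 8 of 8 of Rcl1, which encodes a protein of ribosomal RNA processing, on the same strand. Mir101a lies in exon 2 of the long non-coding RNA E130102H24Rik (E130102H24Rik-201) on the minus strand. Of the 5 hosts, Ctdsp2 alone holds another microRNA gene with a row. That gene, Mir546, lies 2827 bases from Mir26a-2 and stood at 0.442 CPM in replicate 1 and 0.277 CPM in replicate 2, below the 0.663 and 0.832 CPM that a count of 0 allows. No other microRNA gene is annotated within 10000 bases of a member. The strand opposite to each of the 5 hairpins had 0 counts in both libraries.

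**Figure D4:**
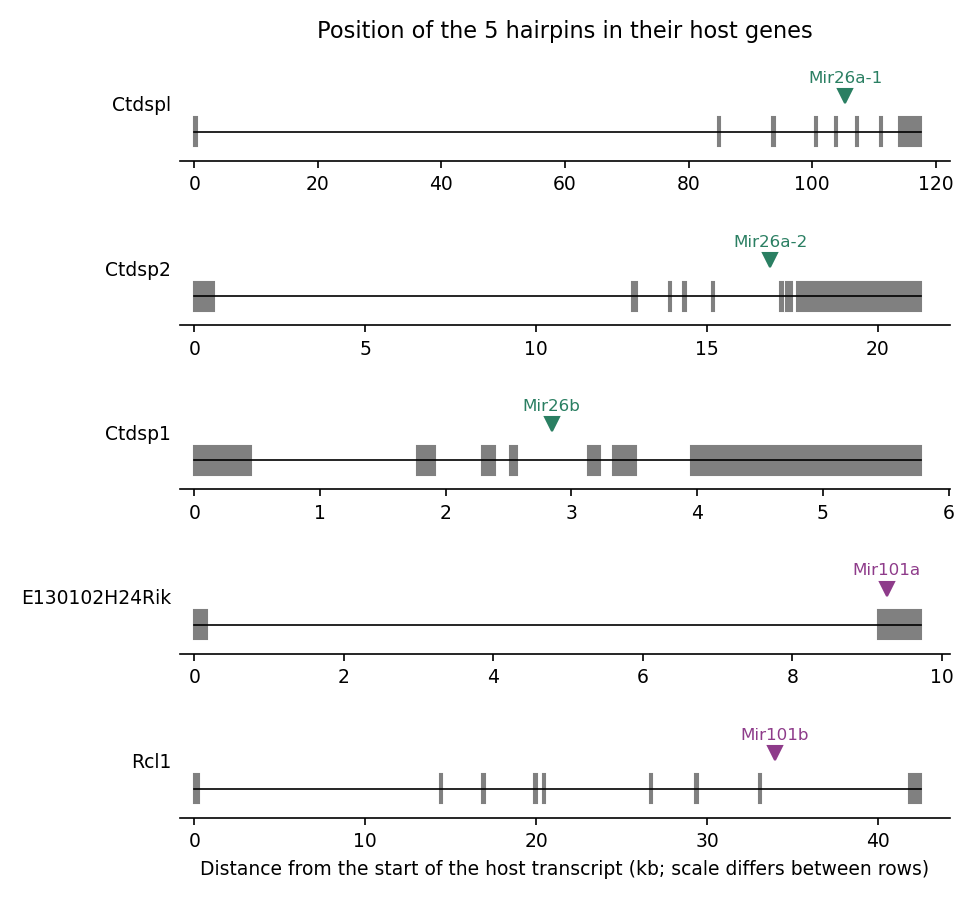
The 5 hairpins (triangles) in the annotated transcript of their host gene, with exons as grey boxes and the distance from the transcript's start in kb on an axis of its own in each row. Mir26a-1 and Mir26a-2 sit in introns towards the 3′ end of Ctdspl and Ctdsp2, Mir26b near the middle of Ctdsp1, Mir101b in the last intron of Rcl1, and Mir101a in the last exon of its non-coding host.

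Matches to both families' seeds were present in the annotated 3′ UTR of Ezh2 itself. The longest annotated Ezh2 3′ UTR (Ezh2-214, chromosome 6, minus strand) has 402 bases. It was searched on the transcript strand for TACTTGA (miR-26), GTACTGT (miR-101a) and TACTGTA (miR-101b), the reverse complements of the seeds, and the stretches holding a match are shown with the match in capitals.
miR-26, UTR bases 248 to 254 (chr6:47530285-47530308): aatttgaataaagaaTACTTGAac
miR-101a, UTR bases 59 to 65 (chr6:47530474-47530497): cttcaggaaccttgaGTACTGTgg
miR-101a, UTR bases 114 to 120 (chr6:47530419-47530442): ttctgaatttgcaaaGTACTGTaa
The miR-26 match and the second miR-101a match are followed by A, which extends them to 8 bases, and the first miR-101a match is followed by G. The match to miR-101b lies at bases 115 to 121 and overlaps the second miR-101a match by 6 bases. It is also followed by A. Such a match is a description of the letters and no measurement of repression. Both families were already known to repress Ezh2, so matches could be foreseen before the search and add no support for repression.

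For scale only, the longest 3′ UTRs of 21020 protein-coding genes were searched in the same way. Enrichment in Ezh2 was not tested, and a gene chosen as a known target could not test it. TACTTGA occurred in 9.67% of them, GTACTGT in 9.38% and TACTGTA in 12.2%, and among the 1797 genes with a 3′ UTR of 0.8 to 1.2 times the length of that of Ezh2 the shares were 2.89%, 2.73% and 2.67%. In the hosts, Ctdsp2 held 1 match to miR-26, where 23.1% of UTRs of like length hold one, and Ctdsp1 and Ctdspl held none for miR-26. Ctdspl held 1 match to miR-101b, where 25.8% of UTRs of like length hold one. Rcl1 held no match to miR-101a or miR-101b.

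Besides these families, 19 genes of other microRNAs reported to repress Ezh2 were listed, and 17 had a row. Of these 14 were detected, beside 14.5% of all 1973 genes. In the mean 5 reached 1000 CPM, a level that all genes down to rank 93 reached. The median was 73.7 CPM over the 17 against 0 CPM over all genes, of which 1256 had no count in either library. The highest was Mir214, known to repress Ezh2 in mouse muscle cells, with 45737 CPM in replicate 1 and 56376 CPM in replicate 2, followed by Mirlet7g, Mirlet7i (18881 ± 138 CPM), Mirlet7d (3598 ± 1159 CPM) and Mir98. Mir26b lay between Mir214 and Mirlet7g in both libraries, and Mir101b lay beside Mir98. Mir138-1 (52.4 ± 8.64 CPM) and Mir138-2 (73.7 ± 17.9 CPM) lay between Mir101a and Mir26a-2 in both libraries, and the 3 Mir124a genes had 0 counts. Mirlet7e and Mirlet7f-1 had no row. Several of these genes, Mir124a and Mir138 among them, have copies of their own and are limited as the miR-26a genes are.

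The replicates gave near levels for the 5 genes, with ratios of replicate 1 to replicate 2 from 0.939 for Mir101a to 1.34 for Mir26a-1. For each gene a two-sided exact binomial test set its count in replicate 1 against that in replicate 2, with Benjamini-Hochberg adjustment over the 436 genes whose counts summed to at least 10. This test sets these 2 libraries against counting error and not conditions. Adjusted p was under 0.05 in 2 of the 5 genes, Mir26b and Mir101b, both higher in replicate 1, beside 41.7% of all genes tested (21.3% higher in replicate 1 and 20.4% higher in replicate 2). Mir26b was higher in replicate 1 by 0.10 on the log2 scale (SE 0.0067, adjusted p = 6.04e-47, exact test) and Mir101b by 0.11 (SE 0.024, adjusted p = 9.98e-06, exact test). Mir26a-1 had 0.41 (SE 0.31, adjusted p = 0.345), Mir26a-2 0.04 (SE 0.17, adjusted p = 0.921) and Mir101a -0.09 (SE 0.085, adjusted p = 0.438) in the same exact test, ratios being replicate 1 over replicate 2.

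The differences of Mir26b, Mir101b, Mir101a and Mir26a-2 were small beside the usual spread, and that of Mir26a-1 was not. Across the 189 genes at 100 CPM or more the median size of the log2 ratio was 0.18 and its SD 0.32, and 28.6% of them had a smaller ratio in size than Mir26b, 33.3% than Mir101b and 27.0% than Mir101a. Among the same genes 13.2% had a smaller ratio than Mir26a-2 and 81.0% than Mir26a-1, both of which lie below 100 CPM and have wider counting errors. The biological coefficient of variation over all 436 genes, from the common dispersion in edgeR, was 16.4%. The called differences of Mir26b and Mir101b were 1.07 and 1.08 times. They exceeded counting error and lay within the spread that the genes at 100 CPM or more showed between the pools.

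**Figure D5:**
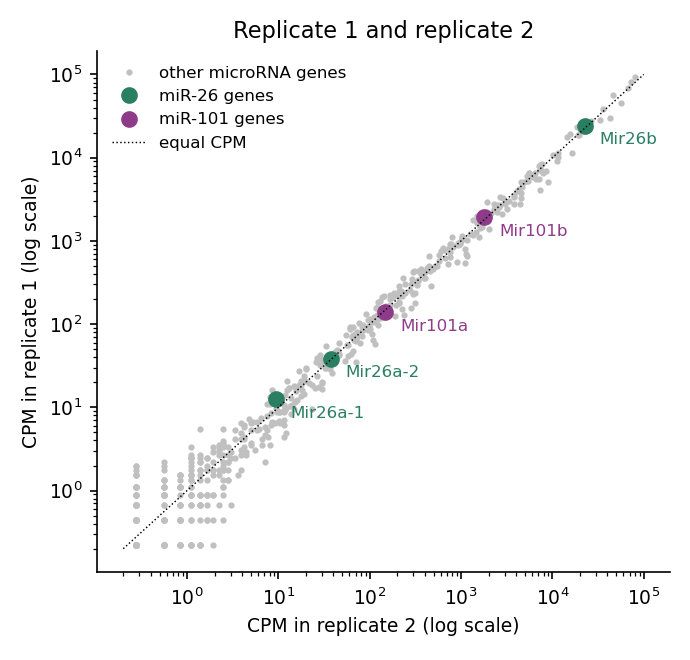
CPM in replicate 1 against CPM in replicate 2 for every gene with a count in both libraries, on log axes, with the 5 genes in colour and a dotted line of equal CPM. All 5 lie near the line, the farthest being Mir26a-1 with 57 counts in replicate 1 and 34 in replicate 2.

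Replicate 1 held 10646293 reads, of which 4525636 were counted on microRNA genes, and replicate 2 held 9738708, of which 3604284 were. The labelled tissue was checked against microRNAs of the limb: Mir196b of the Hox clusters, Mir140 of cartilage, Mir206 of skeletal muscle and Mir205 of ectoderm were all detected. The lowest of them was Mir206 with 2196 CPM in replicate 1 and 2498 CPM in replicate 2. This check set no microRNAs of other tissues beside them, so it goes with the label but does not single out limb. Of other muscle microRNAs, Mir133b (46.8 CPM in replicate 1 and 43.3 CPM in replicate 2), Mir208b (46.4 and 44.1 CPM) and Mir499 (30.1 and 20.3 CPM) were detected. Mir1a-1 was not detected, with 11 counts in replicate 1 and 0 in replicate 2, and neither were Mir133a-1 and Mir133a-2, with 0 counts in each. Mir208a (9.28 and 11.4 CPM) and Mir1b (1.77 and 3.88 CPM) were not detected either. Mir1a-1, Mir133a-1 and Mir133a-2 also have near-identical copies.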

How the data were processed

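Raw read counts for each microRNA gene, in whole numbers, were deposited by the authors, made on the mouse assembly mm10 with GENCODE M4, per the README deposited with each library. No aligner or counter is given in the sources used here. Counts of both strands equalled the sum of own-strand and opposite-strand counts in all rows, and own-strand counts were used. The rows that name no gene, 57.5% of the reads in replicate 1 and 63.0% in replicate 2, were left out of all totals. Of 1973 gene rows, 1894 matched GENCODE M21 (GRCm38, the same assembly) by identifier without version. The 79 others held 1 count in replicate 1 and 2 in replicate 2.

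From these counts CPM, exact intervals and binomial tests were computed (Python 3.11.15, scipy 1.17.1), with 0.5 counts added for log2 ratios. The dispersion and the TMM factors came from edgeR 4.0.16 and alternative size factors from DESeq2 1.42.0 (R 4.3.3), and the test and the dispersion were tested on simulated data. Copies were sought among annotated hairpins and not across the genome, which was not used here. The members, the list of other Ezh2 microRNAs and the comparisons were chosen with earlier results of these data known. Genes were named by fixed rules: the members, their neighbours in level or position, sequence relatives, and listed genes at 1000 CPM or more. Mir138-1, Mir138-2, the Mir124a genes and the muscle microRNAs other than Mir206 were named after their values were seen. The seed matches in UTRs were chosen in the same way. The labels call the libraries biological replicates, and only the spread between these 2 pools is measured.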

Additional observations from a re-analysis of the deposited data

How the results depend on the processing

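The share of the miR-26 genes lay between 2.27% and 2.43% and that of the miR-101 genes between 0.195% and 0.209% when either replicate was left out. Taken of all reads, the shares were 0.936% and 0.0805%, and taken of gene counts plus reads mapped to several places they were 1.43% and 0.123%, by construction of the larger totals. Counting both strands, TMM scaling and DESeq2 size factors moved neither share by more than the SD. Ratios between genes of 1 library do not depend on the total. The number of genes detected was 5 at 1 CPM, 3 at 100 CPM, and 4 or 5 with either replicate left out. Under every scaling, filter and strand setting run, Mir26b and Mir101b were called between the libraries and the number of all genes called lay between 174 and 204. The ratio of Mir101a turned to 0.11 with all reads as the total, which raises every ratio, and was not called. With a stretch of 22 bases instead of 20, 2 of the 5 hairpins and not 4 shared sequence with another, beside 880 and 929 of all 1894 hairpins with a row. With up to 1 mismatch, 4 genes instead of 2 had a mature arm in another hairpin. No paired analysis was possible because both samples belong to 1 group. Depth limits Mir26a-1 and Mir26a-2 most, as their counting intervals show.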

Other observations

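The counts of other genes with identical copies can be set beside those of the miR-26a genes, as a description without a test. Of the genes with a row and a mature arm in RefSeq, 87 carry an arm identical to one at another locus and 829 carry none. Among those with an identical copy 38 were detected (43.7%), with a median of 79.3 CPM over the detected genes, and the highest was Mir92-1 of the miR-17-92 cluster at 6319 CPM. Among those without, 225 were detected (27.1%), with a median of 380 CPM. At 1000 CPM or more the shares were near each other, with 7 of the 87 genes (8.05%) and 82 of the 829 (9.89%). At 10000 CPM or more there were 0 of the 87 and 23 of the 829, Mir26b among them. Few genes reached that level, and whether genes with and without a copy differ there was not tested. Levels are those of reads placed at 1 locus, and the part of reads mapped to several places in these levels was not tested.

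Some seeds are carried both by genes with an identical copy and by genes without. The seed of miR-26 had a ratio of 618 between its highest gene without a copy, Mir26b, and its highest with one, Mir26a-2. For the miR-30 seed the ratio of Mir30e to Mir30c-1 was 319, and for the let-7 seed that of Mirlet7g to Mirlet7f-2 was 52.7. The opposite order was seen for the seed of Mir92-1 at 6319 CPM, where the highest gene without a copy was Mir25 at 829 CPM. The seeds named here were picked after their values were seen. In all, 18 seeds had both kinds of gene and a gene at 100 CPM. The highest gene without a copy stood higher in 16 of them, and the highest gene with one in 2, the seed of Mir92-1 included. The kinds were not matched in number. For the seed AGCAGCA 8 genes had no copy and 2 had one, and for the miR-26 seed 1 had none and 2 had one. The highest of more genes tends to stand higher, and the count of 16 does not adjust for that. For the seeds AGGGAGG and AUAUAAC the highest gene with a copy had 0 CPM. The median ratio was 17.6 over the seeds whose highest gene with a copy had a count. Some of these seeds belong to the same genes, so they are not independent. Like the counts above, this is a description without a test.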
